A study of Homo sapiens with 39 samples.

Results

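The genes described here make up the class I antigen presentation pathway as the array covers it. They are the heavy chain genes HLA-B, HLA-C and HLA-E, the light chain gene B2M, the peptide transporter genes TAP1 and TAP2, TAPBP, and the immunoproteasome genes PSMB8 and PSMB9. They were taken by gene symbol, which gave 13 of 20589 probes and 9 of 16591 genes. Each probe is named by the transcript accession that the array design gives it. HLA-B, HLA-C, HLA-E, B2M, TAP1 and PSMB9 had 1 probe each, TAP2 and PSMB8 had 2, and TAPBP had 3.

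The cells were IM-9, B lymphoblasts immortalised by Epstein-Barr virus, and U266, which was derived from a multiple myeloma. The labels call IM-9 sensitive and U266 tolerant. Total RNA was taken from untreated cells at 0 h, and at 1, 3, 9 and 24 h of culture with either buffer, the control, or ch128.1Av at 10 nM. The agent joins avidin to an antibody against transferrin receptor 1, through which cells take up iron. The 18 groups held 2 arrays each, except that IM-9 had 3 for ch128.1Av at 3 h and U266 had 3 for ch128.1Av at 1 h and again at 9 h, 39 arrays in all. Both lines are long-established cultures of a single origin each, so a difference between them is one between 2 lines and not between 2 diseases. Whether the replicates came from different cultures is not given in the labels, and p-values then measure only the spread between these samples, which may be technical. In RNA from a whole culture, a changed share of cells and a changed amount of RNA per cell cannot be told apart.

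Class I molecules show peptides from inside the cell to CD8+ T cells, and HLA-E also serves as a ligand for receptors on natural killer cells. Proteasomes cut proteins into peptides, and PSMB8 and PSMB9 are catalytic subunits that replace constitutive ones in the immunoproteasome. TAP1 and TAP2 form the transporter that moves the peptides into the endoplasmic reticulum. There tapasin, encoded by TAPBP, holds the empty heavy chain and its partner B2M beside the transporter until a peptide binds. Interferons and NF-kB raise these genes together in many cell types, and B-lineage cells express them without such a stimulus.

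Nearly all of the genes lie in the major histocompatibility complex on chromosome 6, and B2M is on chromosome 15. In RefSeq GRCh38.p14, TAP1 spans chr6:32845209-32853704 on the minus strand and PSMB9 spans chr6:32854192-32859851 on the plus strand. Their starts are 488 bases apart, and the genes run away from each other. The windows of TAP1 and PSMB9, from 250 bases before to 50 after the start, are shown because, of these neighbours, TAP1 was called under ch128.1Av and PSMB9 was not, a difference that was not itself tested. Those of B2M and TAPBP are shown for the same letters as in TAP1, and those of HLA-B and HLA-C because they are alike. Each is printed 5′ to 3′ on the strand of its gene, and capitals mark matches to the interferon-stimulated response element (ISRE, searched as GAAA, any 2 bases and GAAA) or to the NF-kB consensus, on either strand.
TAP1, chr6:32853655-32853954, minus strand: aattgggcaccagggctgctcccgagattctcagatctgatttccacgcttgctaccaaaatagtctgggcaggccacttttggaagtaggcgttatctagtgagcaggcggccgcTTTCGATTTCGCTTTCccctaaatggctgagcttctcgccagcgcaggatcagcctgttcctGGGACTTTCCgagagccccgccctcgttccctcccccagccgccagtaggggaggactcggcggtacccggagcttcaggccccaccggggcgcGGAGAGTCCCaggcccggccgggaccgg
PSMB9, chr6:32853942-32854241, plus strand: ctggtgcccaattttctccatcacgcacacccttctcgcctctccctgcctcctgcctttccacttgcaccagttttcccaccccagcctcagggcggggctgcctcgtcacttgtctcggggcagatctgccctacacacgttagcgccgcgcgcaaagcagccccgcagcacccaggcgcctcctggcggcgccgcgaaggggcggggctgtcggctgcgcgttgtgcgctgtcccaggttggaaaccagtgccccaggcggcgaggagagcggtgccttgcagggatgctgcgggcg
B2M, chr15:44711267-44711566, plus strand: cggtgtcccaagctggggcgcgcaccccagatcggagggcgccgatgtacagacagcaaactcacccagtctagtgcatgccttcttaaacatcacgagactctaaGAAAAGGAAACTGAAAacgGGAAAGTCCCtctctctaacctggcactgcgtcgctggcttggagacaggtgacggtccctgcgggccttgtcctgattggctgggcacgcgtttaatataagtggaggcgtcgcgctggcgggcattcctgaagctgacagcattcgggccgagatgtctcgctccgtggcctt
TAPBP, chr6:33314029-33314328, minus strand: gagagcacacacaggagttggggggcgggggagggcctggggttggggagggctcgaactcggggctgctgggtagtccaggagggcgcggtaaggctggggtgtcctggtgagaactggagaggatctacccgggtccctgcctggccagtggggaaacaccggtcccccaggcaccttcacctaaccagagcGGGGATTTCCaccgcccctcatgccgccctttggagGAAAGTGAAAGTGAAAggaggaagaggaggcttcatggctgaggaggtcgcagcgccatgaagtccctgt
HLA-B, chr6:31357130-31357429, minus strand: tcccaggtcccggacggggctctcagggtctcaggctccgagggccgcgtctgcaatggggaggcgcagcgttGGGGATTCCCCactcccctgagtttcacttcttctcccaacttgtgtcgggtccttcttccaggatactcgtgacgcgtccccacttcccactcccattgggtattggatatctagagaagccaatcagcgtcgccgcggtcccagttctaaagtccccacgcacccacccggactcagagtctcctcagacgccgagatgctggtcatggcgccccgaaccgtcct
HLA-C, chr6:31272043-31272342, minus strand: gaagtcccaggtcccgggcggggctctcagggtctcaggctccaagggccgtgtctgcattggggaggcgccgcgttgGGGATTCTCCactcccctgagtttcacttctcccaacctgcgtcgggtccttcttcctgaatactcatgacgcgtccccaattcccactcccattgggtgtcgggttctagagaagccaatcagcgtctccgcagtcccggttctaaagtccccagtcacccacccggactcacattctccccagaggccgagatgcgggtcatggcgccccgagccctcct

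A RefSeq window was at hand for 8 of the 9 genes, and HLA-E is named only. TAP1 and PSMB8 each had a second window, at another start. The TAP1 window held 2 overlapping ISRE matches and 2 NF-kB matches, whereas the PSMB9 window held neither, and the 2 windows share 13 bases. The ISRE matches, at -134 and -128 from the TAP1 start, and the NF-kB match at -72 lie between the starts of the 2 genes. The PSMB9 window does not reach them, so its lack of matches does not show that PSMB9 lacks these elements. Whether they act on PSMB9 was not tested. In the counts that follow, a gene counts if any of its windows matched, while the shares are of single windows. An ISRE match was found for 5 of the 8 genes (B2M, TAP1, TAP2, TAPBP and PSMB8), against 3.57% of all 35116 windows of this length. PSMB8 counts through its second window alone, and its window at the start of the gene held no ISRE match. An NF-kB match was found for 5 of the 8 (HLA-B, HLA-C, B2M, TAP1 and TAPBP), against 5.91% of all windows. In HLA-B the NF-kB matches overlap each other, and in B2M and TAPBP the ISRE matches do. Further motifs were searched in the same way. CCAAT was present for 5 of the 8 genes against 34.6% of windows, TGACG for 6 against 24.6%, and the GC box GGGCGG for 6 against 45%. The windows of HLA-B and HLA-C were identical at 90.9% of aligned bases. These windows lie mostly before the start, so their likeness does not show what probes for the transcripts can tell apart. The transcripts of HLA-B and HLA-C are closely related and differ between people, and the probe sequences were not used here. Signal shared between class I heavy chains therefore cannot be told apart from signal of the named gene.

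All 13 probes passed the filter on dim probes (2 or more arrays with a detection p below 0.01), as 12080 of all probes did. Of the 13, 12 were detected on all 39 arrays. The exception was TAPBP NM_172208, detected on 16 of 19 IM-9 and 3 of 20 U266 arrays. Levels below are log2 normalized intensities, which can be compared between arrays for 1 probe but not between probes. Per array, 8967 to 10067 probes were detected and the median raw intensity was 137.9 to 223.3. On 7 arrays, all of U266, the highest raw signal exceeded 60000. Of 7 B cell markers on the array, CD79A, CD22 and CR2 were detected on all 19 IM-9 arrays and on 0 U266 arrays, and CD79B and BLK on all arrays of both lines. MS4A1 and PAX5 were detected on 1 and 0 IM-9 arrays. Of 8 plasma cell markers, 5 were lower in IM-9 than in U266 and 3 were higher, IRF4, MZB1 and FKBP11. CD38 was detected on 20 U266 and 2 IM-9 arrays and SDC1 on 13 and 3. The median level of SDC1 was 13.2 in U266 and 9.17 in IM-9, so arrays without detection were not read as lacking it. Of 12 T, NK and myeloid markers, NKG7 was detected on 19 and CSF1R on 15 IM-9 arrays, and NCAM1 on 20 and CD2 on 13 U266 arrays. NCAM1 was also detected on 3 IM-9 arrays, and the other 8, CD3D, CD3E and CD14 among them, on 0 arrays.

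The plot of every array shows the main pattern of the 9 genes. U266 lay above IM-9 for most of them, and TAP1 in IM-9 climbed at 24 h of ch128.1Av towards the U266 level.

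**Figure D1:**
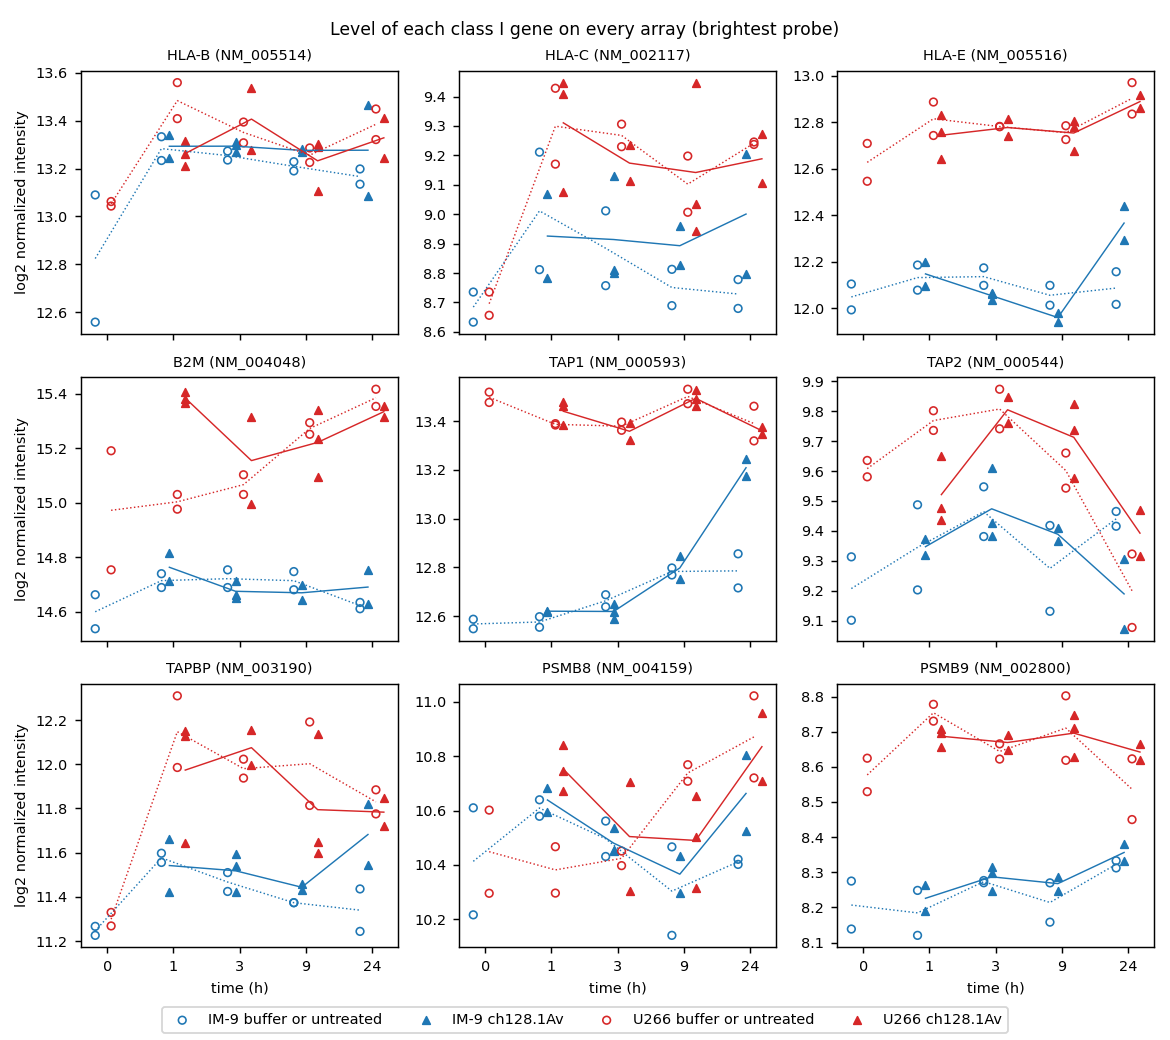
Log2 normalized intensity (vertical axis) of each gene's brightest probe by time in hours (horizontal axis, evenly spaced steps). Open circles are untreated or buffer arrays, triangles are ch128.1Av arrays, blue is IM-9, red is U266, and lines join group means. TAP1 in IM-9 is at 13.17 and 13.24 on the treated arrays at 24 h and at 12.86 and 12.72 on the buffer arrays.

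The first comparison asks how the lines differ without the agent. Over the 10 untreated and buffer arrays of each line, matched by hour, most class I genes were lower in IM-9 than in U266. Of 13 probes, 9 were lower in IM-9, 2 were higher and 2 did not pass the test at an adjusted p under 0.05. The lines differed widely in general: 82.6% of all probes tested were called, 41.6% lower and 41% higher in IM-9. The median difference was -0.25 over the 13 probes and -0.00067 over all probes tested.

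TAP1, which forms the transporter with TAP2, showed the largest line difference of the 13 probes. In IM-9 its level ran from 12.55 over a median of 12.66 to 12.86, and in U266 from 13.32 over 13.43 to 13.53. The lines did not overlap. The difference was -0.76 (SE 0.0211, adjusted p = 9.11e-21), a level 1.69-fold lower in IM-9. TAP2 NM_000544 ran from 9.10 to 9.55 in IM-9 and from 9.08 to 9.87 in U266. Its lines overlapped, with a difference of -0.25 (adjusted p = 9.46e-05) that did not pass with equal medians (-0.10, adjusted p = 0.509). The second TAP2 probe, NM_018833, differed by 0.01 (95% interval -0.05 to 0.06, adjusted p = 0.809).

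HLA-E, the least variable of the class I heavy chains between people, ran from 11.99 over 12.10 to 12.19 in IM-9. In U266 it ran from 12.55 over 12.78 to 12.97. The lines again did not overlap, and HLA-E was 1.61-fold lower in IM-9 (-0.68, SE 0.0319, adjusted p = 4.36e-16). The classical heavy chains differed less and overlapped between the lines, with HLA-C at -0.31 (adjusted p = 0.000571) and HLA-B at -0.16 (adjusted p = 0.0095). With arrays scaled to equal medians HLA-B turned to 0.068 (adjusted p = 0.522), so its direction depends on the scaling.

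B2M, the light chain shared by all class I molecules, was among the brightest probes, above 99.5% of those tested by its mean level. It ran from 14.54 over 14.68 to 14.75 in IM-9 and from 14.75 over 15.15 to 15.42 in U266. B2M was 1.38-fold lower in IM-9 (-0.47, SE 0.0439, adjusted p = 5.31e-10). The highest IM-9 array and the lowest U266 array met at 14.75.

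The immunoproteasome genes did not share 1 direction. PSMB9 was lower in IM-9, at 8.12 over 8.27 to 8.33 against 8.45 over 8.62 to 8.80 in U266. Its lines did not overlap (-0.40, SE 0.0273, adjusted p = 8.94e-13). The probes of PSMB8 disagreed. NM_004159 differed by -0.13 (SE 0.0657, adjusted p = 0.08), and NM_148919 was higher in IM-9 by 0.35 (SE 0.0701, adjusted p = 8.27e-05). Within each array NM_004159 exceeded NM_148919 by 0.98 ± 0.21 in IM-9 and by 1.45 ± 0.29 in U266 (SD, n = 10 each). This gap differed by -0.47 between the lines (permutation test, 2-sided, p = 0.00084, adjusted over the 5 probe pairs 0.0014), a comparison chosen after the values were seen. All 5 pairs differed by this test. Each pair of TAP2 and TAPBP includes a dim probe, so these pairs cannot show whether the gap was particular to PSMB8. The adjusted p was 0.0115 for the TAP2 pair and 0.011, 0.0012 and 5e-05 for the TAPBP pairs, dim probes included. The accessions stand for different transcripts of PSMB8, and which transcripts each probe binds was not tested.

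TAPBP NM_003190, the brightest probe of the tapasin gene, was 1.37-fold lower in IM-9 (-0.45, SE 0.0726, adjusted p = 4.06e-06). Its lines overlapped through the U266 arrays at 0 h, which were at 11.27 and 11.33, while the IM-9 arrays at 0 h were at 11.27 and 11.23. The dim probe NM_172209 differed by -0.11 (adjusted p = 2.85e-06). The other dim probe, NM_172208, was the second of those called higher in IM-9, but with detection on 3 of 20 U266 arrays the size of its difference is not given. Lines without overlap and lower in IM-9 were seen for 4 of the 13 probes, HLA-E, TAP1, TAPBP NM_172209 and PSMB9, and for 25.5% of all probes tested. With the 0 h arrays alone, 7 of the 13 probes were called, and HLA-B, HLA-C, TAPBP NM_003190 and PSMB8 NM_148919 were not. Of all 12080 probes tested, 8043 were called at 0 h alone and 9977 over all hours, so the number called fell over all probes too. Whether it fell more for these genes was not tested.

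**Figure D2:**
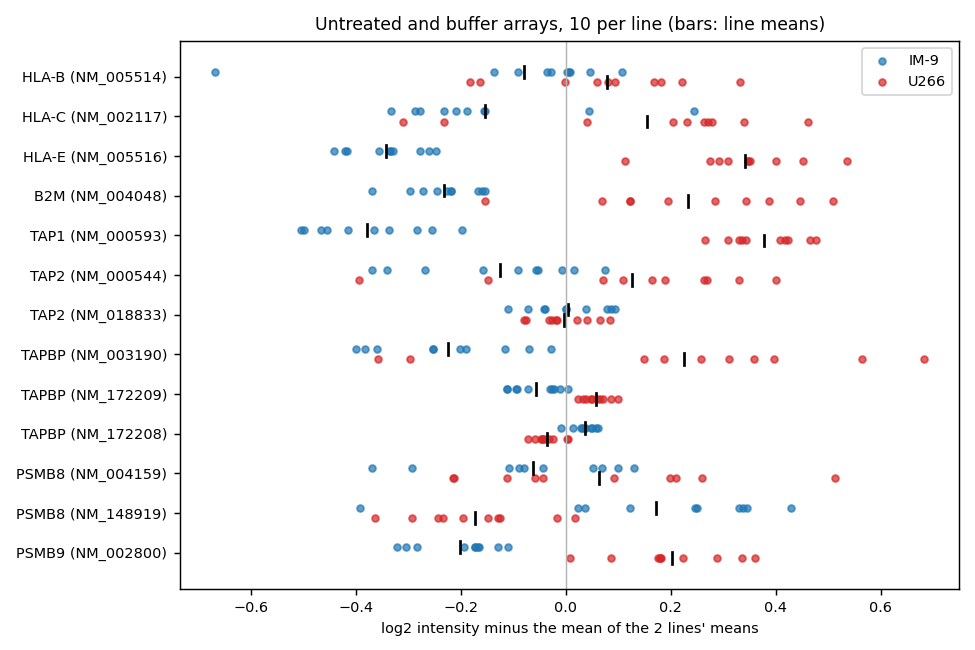
Log2 intensity of the 13 probes on the 10 untreated and buffer arrays of IM-9 (blue) and U266 (red), each centred on the mean of the line means (horizontal axis), with black bars for line means. HLA-E, TAP1, TAPBP NM_172209 and PSMB9 show no overlap, with IM-9 lower.

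Other genes of the pathway did not share this direction. All 5 genes of the list of PSMB10, proteasome activator PA28 and assembly factors were higher in IM-9. They included the immunoproteasome subunit PSMB10 (0.83) and the activator subunits PSME2 (0.86) and PSME3 (1.09), each with an adjusted p of 5.53e-19 or less. PSMB10 thus differed in the opposite direction to PSMB9. Of 3 constitutive catalytic subunits, PSMB7 was lower in IM-9 (-0.79, adjusted p = 5.42e-17) and PSMB5 and PSMB6 did not pass. Among 6 other class I and class I-like heavy chains tested, 2 were higher and 3 lower in IM-9. HLA-F was higher by 2.22 (adjusted p = 8.71e-24), while MICB, a stress-induced ligand of the receptor NKG2D, was at -2.52 (adjusted p = 1.58e-22). MR1, which presents small metabolites to T cells, was at -1.22 (adjusted p = 3.37e-19). In the list of loading, folding and trimming factors 4 of 6 were higher and 2 lower. TAPBPL, a tapasin-related peptide editor, was higher by 1.66 (adjusted p = 7.52e-20), and BCAP31, an endoplasmic reticulum export factor, was at -1.81 (adjusted p = 4.78e-26).

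The second comparison asks what ch128.1Av did to these genes at 24 h, against buffer at the same hour. In IM-9, TAP1 and HLA-E were higher with ch128.1Av than with buffer and none of the 13 probes was called lower. For comparison, 6.03% of all probes tested were called higher and 7.01% lower. The median difference was 0.11 over the 13 probes and -0.0014 over all probes. Treated and buffer arrays did not overlap for 8 of the 13 probes with ch128.1Av higher and for 1 with it lower, against 23.4% and 24.8% of all probes.

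TAP1 stood at 13.17 and 13.24 on the treated IM-9 arrays and at 12.86 and 12.72 on the buffer arrays. Both treated arrays were above both buffer arrays, yet below the lowest untreated or buffer array of U266. The group levels were 13.21 ± 0.05 and 12.79 ± 0.10 (SD, n = 2 each), a 1.34-fold rise (0.42, SE 0.0471, adjusted p = 2.24e-06). Leaving out any 1 of the 4 arrays kept the call, with adjusted p of 0.000238 or less. With arrays scaled to equal medians, where the median of all probes shifted to -0.14, TAP1 was at 0.14 and did not pass (adjusted p = 0.629). Relative to that shifted median it was 0.27 higher.

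HLA-E stood at 12.29 and 12.44 on the treated IM-9 arrays and at 12.16 and 12.02 on the buffer arrays. The groups did not overlap, and the rise was 1.21-fold (0.28, SE 0.0714, adjusted p = 0.0109). It did not pass when control replicate 2 (0.21, adjusted p = 0.194) or treated replicate 2 (0.21, adjusted p = 0.238) was left out. With equal medians HLA-E turned to -0.055 (adjusted p = 0.844). Array brightness, measured as the upper quartile of raw intensity over its 5th percentile, was 9.24 and 9.29 on the buffer arrays and 6.71 and 3.97 on the treated ones. With brightness as a covariate HLA-E was at 0.16 and did not pass (adjusted p = 0.212), whereas TAP1 was at 0.43 and did (adjusted p = 3.98e-05).

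The remaining probes did not pass in IM-9 at 24 h. TAP2 NM_000544, the partner of TAP1, stood at 9.31 and 9.07 with ch128.1Av and at 9.47 and 9.42 with buffer. Its difference of -0.25 (95% interval -0.49 to -0.01, adjusted p = 0.163) had the opposite sign to that of TAP1, while TAP2 NM_018833 was at 0.05 (-0.07 to 0.17, adjusted p = 0.702). PSMB9, the divergent neighbour of TAP1, stood at 8.38 and 8.33 with ch128.1Av and at 8.31 and 8.33 with buffer, a difference of 0.03 (95% interval -0.09 to 0.16, adjusted p = 0.81). TAPBP NM_003190 was at 0.34 (0.01 to 0.68, adjusted p = 0.181), HLA-C at 0.27 (-0.07 to 0.62, adjusted p = 0.326), and PSMB8 NM_004159 at 0.25 (-0.05 to 0.56, adjusted p = 0.293). The dim TAPBP probe NM_172209 was nearer the threshold, at 0.12 (0.03 to 0.20, adjusted p = 0.0569), and its groups did not overlap. The other dim probe, NM_172208, was at -0.015 (-0.08 to 0.05, adjusted p = 0.849). PSMB8 NM_148919 was at 0.018 (-0.31 to 0.34, adjusted p = 0.966). HLA-B was at 0.11 (-0.14 to 0.36) and B2M at 0.07 (-0.13 to 0.27), with adjusted p of 0.639 and 0.747. The intervals of HLA-B, HLA-C, TAPBP NM_003190 and both PSMB8 probes hold a change as large as that of HLA-E, and those of B2M and PSMB9 do not.

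**Figure D3:**
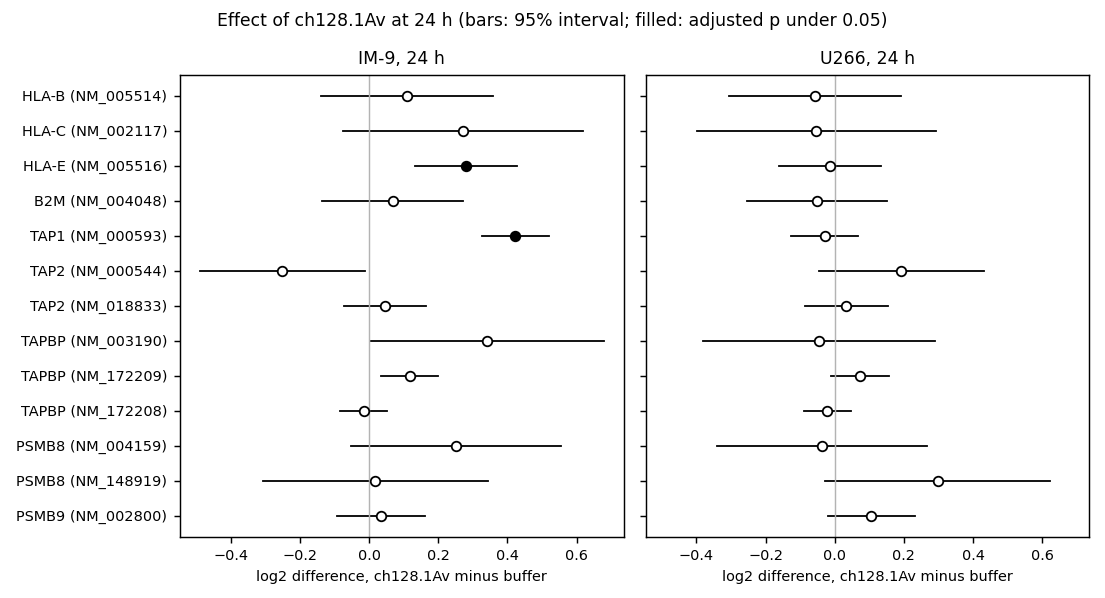
Difference in log2 intensity between ch128.1Av and buffer at 24 h (horizontal axis) for the 13 probes in IM-9 (left) and U266 (right). Bars are 95% intervals and filled points have an adjusted p under 0.05, which are HLA-E (0.28) and TAP1 (0.42) in IM-9 and none in U266.

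In U266 at 24 h, 0 of the 13 probes were called, as were 0.0166% of all probes tested. At an unadjusted p under 0.05 in limma, 0 of the 13 passed, against 834 of all 12080 tested. TAP1 stood at 13.37 and 13.35 with ch128.1Av and at 13.32 and 13.46 with buffer, and the groups overlapped. Its difference was -0.03 (95% interval -0.13 to 0.07, adjusted p = 0.98). HLA-E was at -0.01 (-0.16 to 0.13, adjusted p = 0.996). The largest difference in U266 was that of PSMB8 NM_148919, at 0.30 (-0.03 to 0.62, adjusted p = 0.782).

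Whether the lines differed in their response was tested directly. The TAP1 effect at 24 h was 0.45 greater in IM-9 than in U266 (SE 0.0666, adjusted p = 0.000282), the 1 call among the 13 probes, against 4.69% of all probes. It held without each of the 8 arrays (0.38 to 0.52), and was lost with equal medians (0.26, adjusted p = 0.729). Few probes of any gene were called with equal medians, 18 of the 12080 tested against 566 as reported. Relative to the median of all probes under that scaling, TAP1 was 0.34 higher. The difference did not pass for HLA-E (0.29, adjusted p = 0.0918) or for TAP2 NM_000544 (-0.44, adjusted p = 0.114).

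**Figure D4:**
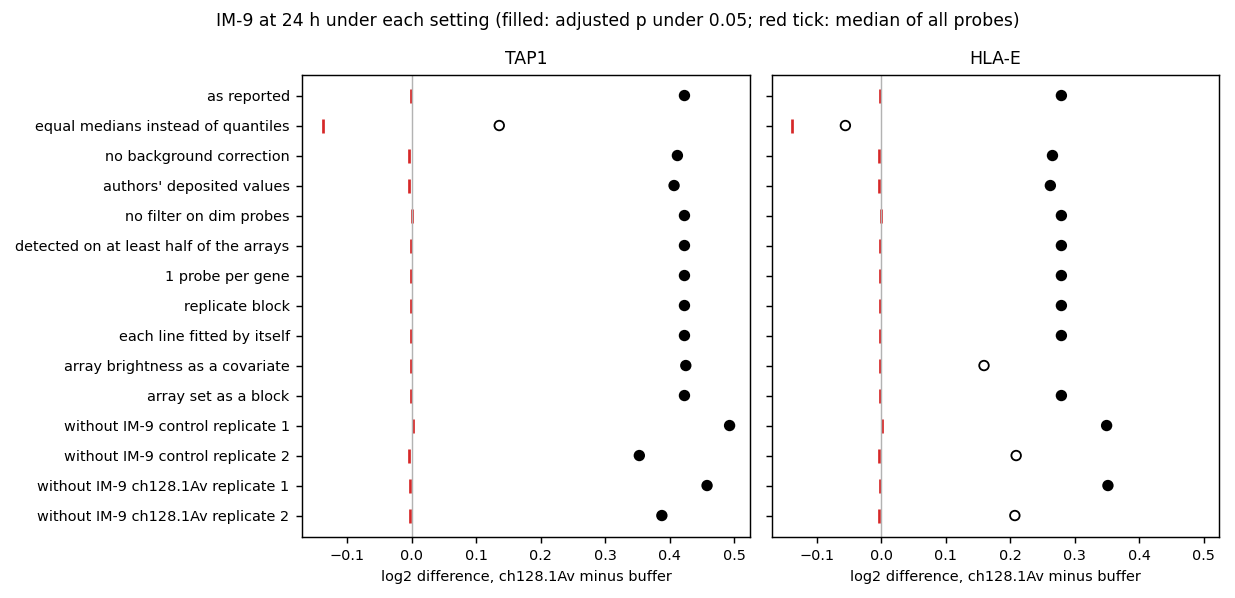
Difference between ch128.1Av and buffer in IM-9 at 24 h (horizontal axis, log2) for TAP1 and HLA-E under each processing setting (vertical axis), with filled points where the adjusted p is under 0.05 and red ticks for the median of all probes. TAP1 is open with equal medians alone, at 0.14, and HLA-E is open in 4 settings.

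Genes around the pathway were counted in the same comparison. In IM-9 at 24 h, 3 of 6 other class I and class I-like heavy chains were higher with ch128.1Av, namely MICB (0.45, adjusted p = 0.0221), MR1 (0.43, adjusted p = 0.00275) and HLA-F (0.33, adjusted p = 0.0274). HLA-F stood at 10.83 and 11.07 with ch128.1Av and at 10.67 and 10.56 with buffer. TAPBPL (0.55, adjusted p = 0.00225) and BCAP31 (0.19, adjusted p = 0.0451) were the 2 of 6 loading factors that were higher, and BCAP31 did not pass without any 1 of the 4 arrays. The PA28 genes went the other way, with 3 of 5 of their list lower. PSME3, the nuclear PA28 subunit, stood at 11.48 and 11.40 with ch128.1Av and at 11.77 and 11.82 with buffer (-0.36, adjusted p = 0.00286). PSME1 and PSME2, the interferon-inducible PA28 subunits, were at -0.23 and -0.21 (adjusted p = 0.00658 and 0.0108). Of 3 constitutive catalytic subunits 0 passed, and of 5 cytosolic peptidases NRDC was lower (-0.21, adjusted p = 0.0263), a call that 3 of the 4 fits leaving out 1 array lost.

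The list of class I regulators and interferon signalling genes was mixed, with 3 of 19 higher and 2 lower. Named after their values were seen, the transcription factor IRF1, an activator of class I genes, was higher by 0.44 (adjusted p = 0.0322) and IRF2 by 0.15 (adjusted p = 0.0369). IRF1 stood at 12.35 and 12.49 with ch128.1Av and at 12.06 and 11.89 with buffer, without overlap. The interferon alpha receptor chain IFNAR2 was higher (0.19, adjusted p = 0.021), and the interferon gamma receptor chain IFNGR1 and the kinase JAK2 were lower (-0.30 and -0.25, adjusted p = 0.00164 and 0.00748). In the test between the lines, IRF1 (0.75, adjusted p = 0.0244), HLA-F (0.53, adjusted p = 0.0314) and PSME3 (-0.58, adjusted p = 0.0029) differed, and PSME3 alone of these held without each of the 8 arrays. In U266 at 24 h, 0 genes of these 6 lists were called. With equal medians, JAK2 was the 1 gene still called in IM-9. Without control replicate 2 or treated replicate 2, none of HLA-F, MICB, MR1, TAPBPL, IRF1, PSME1 and PSME2 passed, and PSME3 failed without treated replicate 2.

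Markers of B-cell stage moved in IM-9 at 24 h as well. Of 8 plasma cell markers 4 were higher with ch128.1Av, among them the transcription factors IRF4 (0.59, adjusted p = 3.68e-05) and PRDM1 (0.80, adjusted p = 0.00129). With equal medians 0 of the 8 passed. MZB1 (-0.27, adjusted p = 0.261) and FKBP11 (-0.15, adjusted p = 0.176) had the opposite sign and did not pass, although their groups did not overlap. The summed linear intensity of the 8 was 28168 to 29720 with ch128.1Av and 25779 to 25951 with buffer. Of 5 B cell markers tested CR2 was lower (-0.71, adjusted p = 1.47e-05). The summed intensity of all 7 on the array was 8779 to 9714 with ch128.1Av and 9381 to 10046 with buffer. The part of these shifts in the TAP1 and HLA-E values was not tested.

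Before 24 h, the class I genes showed 1 call in 6 comparisons of ch128.1Av with buffer. In IM-9, 0 of the 13 probes were called at 1, 3 or 9 h, where 0%, 0.0166% and 0.0993% of all probes were called. TAP1 in IM-9 was at 12.62 and 12.62 with ch128.1Av at 1 h, at 12.65, 12.62 and 12.59 at 3 h, and at 12.75 and 12.85 at 9 h. At 9 h the TAP1 group means were 12.80 with ch128.1Av and 12.78 with buffer. In U266, 0 of 13 were called at 3 and 9 h, against 0.00828% and 0.0414% of all probes. At an unadjusted p under 0.05 in limma, 250, 561 and 1040 of all probes passed in IM-9 at 1, 3 and 9 h, and 568 and 431 in U266 at 3 and 9 h. The difference between the lines was called for 0 of 13 at 1, 3 and 9 h, against 0.0828%, 0% and 0.0166%.

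The exception was B2M in U266 at 1 h, 1 of 13 probes against 9.02% of all called, 4.62% higher and 4.4% lower. B2M stood at 15.37, 15.38 and 15.41 with ch128.1Av and at 15.03 and 14.98 with buffer, a 1.30-fold difference (0.38, SE 0.0895, adjusted p = 0.0135). All 3 treated arrays and neither buffer array belonged to the 7 with a top raw signal above 60000. With that set as a block B2M was at 0.14 (adjusted p = 0.874). Few probes of any gene were called with the block, 2 against 1090 as reported, so the lost call was not particular to B2M. With equal medians B2M was at 0.905 and stayed called (adjusted p = 0.00428). With array brightness as a covariate it was at 0.21 (adjusted p = 0.279), and without either buffer array the adjusted p was 0.0644 or 0.0807. By raw signal B2M was the 18th to 21st brightest probe on the treated arrays and the 52nd and 58th on the buffer arrays. This rank also varied between U266 buffer arrays, at 52 and 45 at 3 h, 27 and 31 at 9 h, and 17 and 22 at 24 h. Of these, the 9 h arrays alone belonged to the set. With ch128.1Av at 3 h it was 56 on the array outside the set and 25 on the array in it.

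The third comparison describes culture without the agent. In IM-9, 2 of 13 probes were higher at 24 h of buffer than at 0 h, against 8.68% of all probes higher, 7.02% lower and 15.7% in either direction. TAP1 rose from 12.55 and 12.59 to 12.86 and 12.72 (0.22, adjusted p = 0.00238), a call lost without control replicate 1 at 24 h (adjusted p = 0.0762). PSMB8 NM_148919 rose by 0.48 (adjusted p = 0.0401) from 8.91 and 9.42 to 9.64 on both arrays, and 3 of the 4 fits that left out 1 array lost it. TAP1 at 24 h of ch128.1Av therefore lay above a buffer level that had itself risen from 0 h.

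In U266, 5 of 13 probes changed between 0 h and 24 h of buffer, against 12.1% of all probes. HLA-C (0.55, adjusted p = 0.0355), TAPBP NM_003190 (0.53, adjusted p = 0.0351), B2M (0.41, adjusted p = 0.00957) and HLA-E (0.28, adjusted p = 0.0156) rose. TAP2 NM_000544 fell by 0.41 (adjusted p = 0.0238). TAP1 in U266 was at 13.52 and 13.48 at 0 h and at 13.32 and 13.46 at 24 h, and did not pass (-0.11, adjusted p = 0.138). None of the 5 held under every setting: 0 passed with equal medians or with array brightness as a covariate, and HLA-C and TAPBP NM_003190 failed without any 1 of the 4 arrays. HLA-E, B2M and TAP2 NM_000544 did not pass without control replicate 1 at 0 h or at 24 h, and TAP2 also failed without control replicate 2 at 0 h.

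Several members were lowest at 0 h. HLA-B had its lowest group mean there in both lines, 12.82 ± 0.38 in IM-9 and 13.05 ± 0.01 in U266 (SD, n = 2 each). Its other group means were 13.17 to 13.29 in IM-9 and 13.23 to 13.48 in U266. IM-9 replicate 1 at 0 h, at 12.56, was the lowest array of all. Against the mean of the 4 buffer hours, a contrast added after the values were seen, HLA-B at 0 h was lower by 0.40 in IM-9. In U266 it was lower by 0.32, both as buffer minus 0 h. HLA-B is named here for its low values at 0 h, so the p-values of this contrast are not given. Buffer at 24 h alone differed from 0 h by 0.34 in IM-9 and did not pass (adjusted p = 0.0551). Without that lowest array this 24 h difference was 0.077. The contrast with the 4 buffer hours was not refitted without it.

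The order of groups within a line was resolved for few members. TAP1 in IM-9 ran from 12.57 at 0 h to 13.21 at 24 h of ch128.1Av, and the gap to the next group, ch128.1Av at 9 h at 12.80, exceeded the spread of arrays within groups (pooled SD 0.05). In U266 the 9 group means of TAP1 spanned 13.36 to 13.50, and most neighbours differed by less than that SD. HLA-E in IM-9 was lowest at 9 h of ch128.1Av (11.96) and highest at 24 h (12.37), with a pooled SD of 0.07. TAPBP NM_003190 in U266 spanned 11.30 at 0 h to 12.15 at 1 h of buffer, with a pooled SD of 0.15.

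The probes of other genes most like each member were found over the 18 group means, after the mean of each line was taken off. These correlations are descriptions over groups that share arrays and normalization. For TAP1 the closest were TM7SF3 (r = 0.89), RINL (0.89) and APOBEC3F (0.88). For HLA-B they were MSN (0.91), EP300 (0.84) and TPR (0.81), and for HLA-C they were OS9 (0.92), PPP1CA (0.90) and TAPBP (0.88). HLA-E was closest to TMEM143 (0.90), PXMP2 (0.89) and ALDOA (0.89), and B2M to PRKD3 (0.91), RPS29 (0.91) and CLIC4 (0.90). PSMB9 had lower values, led by HSDL2 (0.83). Among the members themselves, HLA-B and HLA-C were at r = 0.75, HLA-E and TAP1 at 0.38, and TAP1 and TAP2 NM_000544 at -0.17.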

How the data were processed

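RNA of 39 samples of IM-9 and U266 was measured on Illumina BeadChip arrays. The authors deposited a scanner table of probe intensity, linear and not normalized between arrays as checked on the values, with a detection score per probe, a fraction from 0 to 1, taken here as 1 minus the detection p. A second deposited table of log2 values, quantile-normalized by the authors as found from the values, served as an alternative. BeadStudio is named per the submitters' processing notes, and other software is not given in the sources used here. Values of single samples in 78 other columns stayed out.

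The neqc function of limma (3.58.1, R 4.3.3) corrected the background through the detection p, added an offset of 16, quantile-normalized the arrays and took log2. The filter asked for 2 or more arrays with a detection p below 0.01, which kept 12080 probes and removed 8509. Symbols came from a table pairing probes with genes, updated to RefSeq, and 2257 probes had none. One limma model with a mean for each of 18 groups (21 residual degrees of freedom) gave 15 contrasts, 2-sided, with Benjamini-Hochberg adjustment over all probes tested, and calls at an adjusted p under 0.05. The number of arrays limits the precision. The 4 contrasts between lines at each hour are differences of treatment effects, and the line contrast averages the 5 hour-matched differences. On simulated data with 12080 probes modelled on IM-9 at 24 h, 60% of log2 changes of 0.3, 84% of 0.5, 92% of -0.5 and 100% of 1 were recovered, with 9 false calls. The simulated noise was independent between probes, without array-wide shifts in brightness or scaling. These rates therefore do not cover errors of that kind.

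Brightness, scaling to equal medians, the filter, the deposited log2 table, 1 probe per gene, each line alone, array set, replicate block and left-out arrays were tried as alternatives. All 9 genes and every probe of them were named. From each related list the text could name up to 3 genes with the smallest p in each line at 24 h and in the line contrast, and for each probe the 3 most correlated probes of other genes. The members and lists were chosen with earlier results of these data known. Motifs were searched in RefSeq GRCh38.p14 windows of 250 bases before to 50 after each start.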

Additional observations from a re-analysis of the deposited data

Results flagged for a closer look

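TAP1 at 24 h is singled out because its response to ch128.1Av differed between the lines by a direct test. The effect was 0.45 greater in IM-9 than in U266 on the log2 scale (SE 0.0666, n = 2 arrays in each of 4 groups, limma adjusted p = 0.000282). Both treated IM-9 arrays were above both buffer arrays, whereas the U266 groups overlapped. In IM-9 the brightness ratio was lower on both treated arrays than on the buffer arrays. With that ratio as a covariate the difference was 0.45 (adjusted p = 0.0017). With arrays scaled to equal medians it was 0.26 (adjusted p = 0.729), and 18 of all probes tested were called, against 566 as reported.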

How the results depend on the processing

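Counts are of the 13 probes called. Over all 12080 probes tested, equal medians also lowered the number called, from 1576 to 779 in IM-9 at 24 h. It fell from 566 to 18 for the difference between lines at 24 h, and from 1466 to 6 for U266 buffer at 24 h against 0 h. In U266 at 1 h, 1090 became 41 with brightness and 2 with the array set as a block. Between the untreated lines, 9977 became 8043 at 0 h alone. In IM-9 at 24 h the count of 2 became 0 with equal medians 1 with array brightness as a covariate and 3 with each line fitted by itself, where TAPBP NM_003190 was added, and 1 to 3 when single arrays were left out. In U266 at 1 h the count of 1 became 0 with each line fitted by itself, with brightness or with the array set as a block, and 0 to 1 without single arrays. For the difference between lines at 24 h the count of 1 became 0 with equal medians and 1 to 3 without single arrays. Between the untreated lines the count of 11 became 7 at 0 h alone and 11 to 12 without single arrays. For IM-9 buffer at 24 h against 0 h the count of 2 became 1 with equal medians, no filter, 1 probe per gene or the line alone, and 0 to 3 without single arrays. For U266 the count of 5 became 0 with equal medians or brightness, 3 with no filter, 1 with the line alone, 6 with the stricter filter or the replicate block, where PSMB8 NM_004159 was newly called, and 0 to 4 without single arrays. In the other 9 contrasts the count was 0 in every setting. The cause of these changes was not tested, apart from the smaller number of arrays in fits that left arrays out.

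With equal medians some values called as reported turned sign: in IM-9 at 24 h HLA-E (-0.055), MR1 (-0.033), HLA-F (-0.069), BCAP31 (-0.14) and IFNAR2 (-0.20), and between the lines HLA-B (0.068). The median of all probes shifted to -0.14 in IM-9 at 24 h under that scaling. The replicate block left TAP1 (adjusted p = 6.15e-06) and HLA-E (0.0149) called in IM-9 at 24 h. Same-numbered arrays had correlated deviations of -0.69 to 0.30, so the numbers were not taken to pair samples. Signal over background limits TAPBP NM_172208 most, which was detected on 19 of 39 arrays.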
